A study of Mus musculus with 6 samples.

Results

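Cone photoreceptors turn light into an electrical signal through a small set of dedicated proteins, and the genes described here encode 10 of them: the opsins Opn1sw and Opn1mw, the transducin subunits Gnat2, Gnb3 and Gngt2, the phosphodiesterase subunits Pde6c and Pde6h, the channel subunits Cnga3 and Cngb3, and the cone arrestin Arr3. The members were every probe set annotated to a single one of these symbols, which gave 13 probe sets for 9 genes, out of 18193 genes named on the array. Cnga3 had no such probe set and was not analysed here. Of the 9 genes, 8 were bright enough on average over all arrays to be tested, together with 10916 genes in all, and Opn1mw was not.

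Expression was measured with Affymetrix arrays in retinas dissected at birth from mice lacking cyclin D1 (genotype Cyclin D1 -/-) and from wildtype mice, to ask how genes bound by cyclin D1 change when that protein is absent. Each genotype was represented by 3 numbered pools of retinas with 1 array each, giving 6 arrays. The labels name no other allele or agent, no strain, no number of animals in a pool and no litters, so a p-value here reflects only how far these pools differed, which may be technical. Values below are the authors' deposited signals after quantile normalisation, in array units, given pool by pool. Differences are knockout minus wildtype on the scale log2(signal + 16), which understates the change of dim genes, and a gene was called at a Benjamini-Hochberg adjusted p under 0.1 in limma, two-sided and adjusted over all 10916 genes, the rate named in the labels.

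The knocked-out gene followed the labels. Ccnd1, which encodes cyclin D1, had signals of 447.2, 432.3 and 467.7 in knockout pools, against 5508.3, 5218.3 and 6016.5 in wildtype pools (12.0-fold lower, limma adjusted p = 5.78e-07). Among early retinal transcription factors fixed as tissue markers, the 5 analysed here were above the background level, described below, on all 6 arrays. Of these Lhx2 fell in knockout retinas (limma adjusted p = 0.0108) and 0 rose, beside 2.63% and 2.03% of all tested genes. At an unadjusted limma p under 0.05, 3 were lower (with Six3 and Six6) and 0 higher, beside 6.68% of all tested genes higher. The share of all tested genes lower at this level was not computed. The median log2 difference of these 5 markers was -0.24. The median deposited signal of an array ran from 40.6 to 50.5 units. The arrays were also ranked on their BioB and BioC hybridisation controls, bacterial transcripts spiked in before hybridisation, and divided by rank into 3 with brighter controls (knockout pools 1 and 2 and wildtype pool 3, mean 960.5 to 1201.5 units) and 3 with dimmer controls (knockout pool 3 and wildtype pools 1 and 2, 771 to 854.1 units). These means form no clear gap, and the labels name no such batch. Within each set, 1 array of a genotype is compared with 2 of the other. Wildtype pool 3 also stood apart over all tested genes, with an SD of the log2 difference to the other wildtype pools of 0.46 and 0.52. This SD was 0.22 between wildtype pools 1 and 2 and 0.21 between knockout pools 1 and 2. For knockout pool 3 it was 0.30 and 0.28 to knockout pools 1 and 2. Between a knockout and a wildtype pool it ran from 0.33 to 0.50.

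In a cone, light activates an opsin, the opsin activates the transducin trimer, and transducin relieves the phosphodiesterase of its inhibitory subunit. The enzyme then breaks down cyclic GMP, the cation channel of the outer segment closes, and arrestin ends the response by binding the activated opsin. In the mouse, cones are among the earlier retinal cell types to be born, before birth, while their outer segments form only afterwards, and the short-wavelength opsin appears before the medium-wavelength one.

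At birth, 6 of the 9 cone genes were above background in both genotypes: Opn1sw, Gnat2, Gnb3, Pde6h, Arr3 and Cngb3. Pde6c was above background in the knockout pools only, and Opn1mw and Gngt2 in neither genotype. No detection calls were used, so background was taken on each array as the 95th percentile of 83 probe sets named to a single olfactory, vomeronasal or bitter taste receptor gene, and a probe set counted as above it in a genotype when it exceeded that level in all 3 pools. This level was 91.2, 95.9 and 74.8 units in knockout pools 1, 2 and 3, against 95.5, 69.4 and 125.7 units in wildtype pools 1, 2 and 3, so it was highest on the array of wildtype pool 3. Of the 13 cone probe sets, 8 exceeded it in knockout retinas and 7 in wildtype retinas, beside 33.7% and 26.3% of all single-symbol probe sets. Of the 83 receptor probe sets themselves, 4 did so in knockout and 1 in wildtype retinas. A signal under this level does not show that the transcript is absent.

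**Figure D1:**
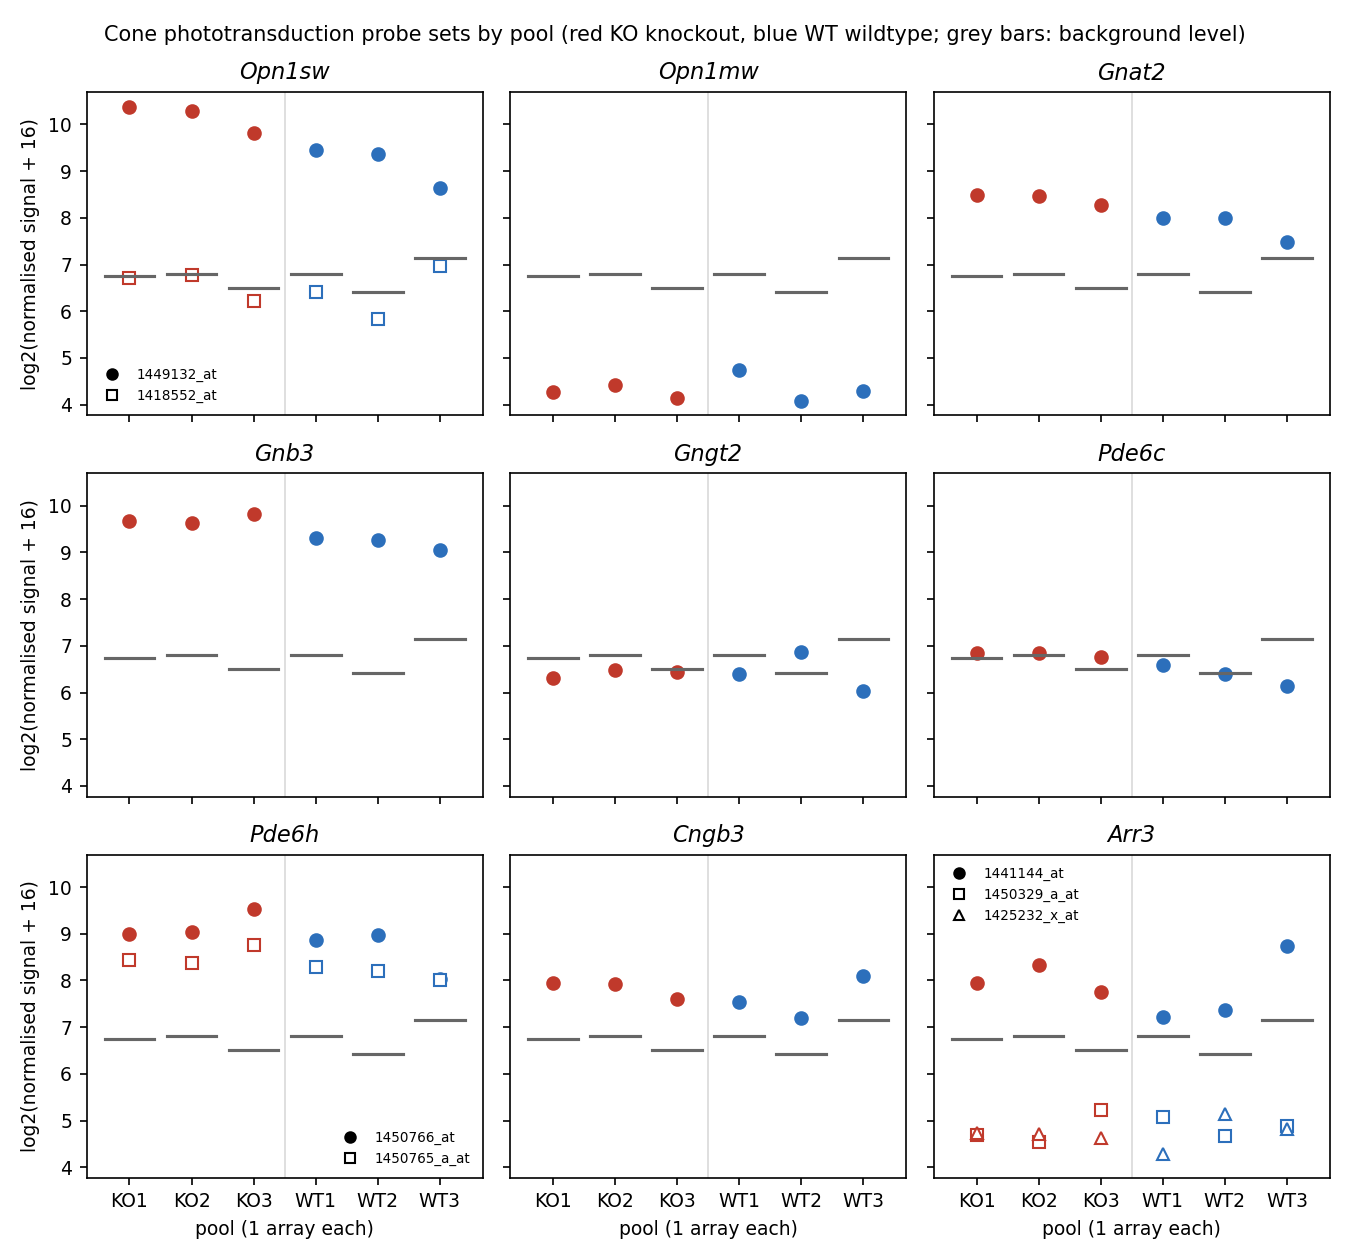
Signal of each cone probe set as log2(normalised signal + 16) on the vertical axis, by pool on the horizontal axis, with 3 knockout pools (red) left of 3 wildtype pools (blue); grey bars mark the background level of each array, and filled symbols are the probe set that represents the gene in the test. All 3 knockout pools lie above all 3 wildtype pools for Opn1sw (1449132_at), Gnat2, Gnb3, Pde6c and Pde6h, while Opn1mw and the open symbols of Arr3 lie below the bars on all arrays.

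The opsins set the wavelength a cone absorbs, and Opn1sw and Opn1mw encode the short- and medium-wavelength pigments of the mouse. Their upstream sequences are shown because Opn1sw was above background at birth and higher without cyclin D1, while Opn1mw was below background in both genotypes, and that of Gnat2, the next largest difference, is added. Each is the 250 bases before the transcript start in RefSeq, build GRCm38.p6, read 5′ to 3′ along the gene. Capitals mark the core letters of the binding site of the photoreceptor factors Otx2 and Crx (TAATC, or GATTA on the other strand) and the half-site of nuclear receptors such as the thyroid hormone, retinoid and ROR receptors (AGGTCA, or TGACCT on the other strand).
Opn1sw, chr6:29380514-29380763, minus strand: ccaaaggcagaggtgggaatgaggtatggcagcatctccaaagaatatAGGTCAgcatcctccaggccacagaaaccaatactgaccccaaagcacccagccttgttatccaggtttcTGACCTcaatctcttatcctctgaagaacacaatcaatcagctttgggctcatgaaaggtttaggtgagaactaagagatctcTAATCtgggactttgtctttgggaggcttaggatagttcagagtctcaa
Opn1mw, chrX:74127216-74127465, plus strand: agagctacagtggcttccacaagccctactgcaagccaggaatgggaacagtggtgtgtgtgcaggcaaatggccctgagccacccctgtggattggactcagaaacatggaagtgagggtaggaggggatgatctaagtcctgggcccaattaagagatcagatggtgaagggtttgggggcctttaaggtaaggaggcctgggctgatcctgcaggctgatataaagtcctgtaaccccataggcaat
Gnat2, chr3:108092816-108093065, plus strand: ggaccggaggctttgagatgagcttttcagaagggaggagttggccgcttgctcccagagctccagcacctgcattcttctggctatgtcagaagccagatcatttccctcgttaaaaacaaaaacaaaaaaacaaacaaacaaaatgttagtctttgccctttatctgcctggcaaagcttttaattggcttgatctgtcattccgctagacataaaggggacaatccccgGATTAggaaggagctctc
The Opn1sw window held 1 TAATC, starting 49 bases before the start of the gene, and 2 AGGTCA half-sites, at 202 and 132 bases. The Gnat2 window held 1 TAATC, read on the opposite strand 18 bases before the start. The Opn1mw window held neither, and among the other members with a RefSeq entry Arr3 held 3 TAATC, while Pde6h and both entries of Cnga3 held neither. Of all 32851 promoter windows of this length, 19.8% held TAATC and 14.0% AGGTCA at least once, and 1.36% held AGGTCA more than once. The matches of different motifs did not overlap in these windows, and a match is a description of letters only.

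Opn1sw rose in knockout retinas. Its representative probe set, 1449132_at, read 1317.1, 1235.4 and 886.1 units in knockout pools 1, 2 and 3, against 686.5, 639.8 and 381 units in wildtype pools 1, 2 and 3. Every knockout pool was above every wildtype pool, and the lowest value was that of wildtype pool 3. On the log2 scale the signal averaged 10.16 ± 0.30 in knockout and 9.15 ± 0.45 in wildtype pools (SD, n = 3 each), a 2.02-fold rise (log2 difference 1.01, 95% confidence interval 0.48 to 1.55, limma adjusted p = 0.0685). The difference was 1.70 within the arrays with brighter controls and 0.41 within those with dimmer controls. The call ended without knockout pool 1 (log2 difference 0.90, adjusted p = 0.277), knockout pool 2 (0.95, adjusted p = 0.271) or wildtype pool 2 (1.12, adjusted p = 0.108), and when its probe sets were averaged (0.59, adjusted p = 0.147). With an unchanged difference the call also ended with no filter (adjusted p = 0.119), no intensity trend (0.112) or the labels' error model (0.101), and it ended with pools 1 and 2 averaged (0.406). The other Opn1sw probe set, 1418552_at, stayed below background on all 6 arrays, with 89.6, 94.3 and 58.6 units in knockout and 69.2, 41.2 and 109.1 units in wildtype pools, overlapping genotypes and a log2 difference of 0.17. In bulk retina, more cells of a type and more RNA per cell cannot be told apart.

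Opn1mw was near the bottom of the scale throughout. Its 1 probe set read 3.4, 5.5 and 1.8 units in knockout pools, against 10.6, 1 and 3.7 units in wildtype pools. The genotypes overlapped, and since both were below background no fold is given.

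Of the 3 cone transducin genes, 1 was called. Gnb3, the β subunit, which in retina is shared by cones and ON bipolar cells, rose in knockout retinas: its probe set read 798.4, 773.9 and 886.8 units in knockout pools, against 616.8, 599.5 and 516.7 units in wildtype pools. The genotypes did not overlap, and the pools of each lay close together, with log2 means of 9.70 ± 0.10 in knockout and 9.21 ± 0.13 in wildtype pools (SD, n = 3 each). The rise was 1.41-fold (log2 difference 0.49, 95% confidence interval 0.26 to 0.73, limma adjusted p = 0.0424) with 0.59 and 0.53 within the arrays with brighter and dimmer controls. The call ended without any 1 knockout pool or without wildtype pool 2 (adjusted p = 0.163, 0.140 and 0.140 without knockout pools 1, 2 and 3, and 0.105 without wildtype pool 2), while the log2 difference stayed between 0.41 and 0.55 in all 6 fits that left out 1 pool. The call also ended with arrays centred on their medians (adjusted p = 0.180), no intensity trend (0.105), the labels' error model (0.152), the replicate block (0.149) or pools 1 and 2 averaged (0.363). Of the bipolar cell markers fixed for comparison, 3 of 7 could be tested (Trpm1, Prkca and Isl1) and none was called. Over all tested genes, 2.03% were called higher and 2.63% lower. Trpm1, Vsx1, Cabp5 and Gng13 were not above background on any array. The part of bipolar cells in the Gnb3 difference was not tested.

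Gnat2, the α subunit that carries the signal from opsin to the phosphodiesterase, read 345.9, 336 and 293.2 units in knockout pools, against 239.1, 241.2 and 163 units in wildtype pools. The genotypes did not overlap, with wildtype pool 3 again the lowest. Its log2 difference of 0.58 (95% confidence interval 0.21 to 0.96) did not pass the test (limma adjusted p = 0.126), and it was 1.00 within the arrays with brighter controls and 0.27 within those with dimmer controls. Gngt2, the γ subunit, read 63.6, 74 and 70.5 units in knockout pools, against 68.2, 100.7 and 49.8 units in wildtype pools. The knockout values lay inside the wildtype range, only wildtype pool 2 exceeded its array's background, and the log2 difference was -0.02 (95% confidence interval -0.51 to 0.47, limma adjusted p = 0.991).

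The phosphodiesterase genes were higher in every knockout pool than in every wildtype pool, without passing the test. Pde6c encodes the catalytic subunit of the cone enzyme. Its probe set read 98.5, 99.8 and 92.7 units in knockout pools, against 80, 68.9 and 55 units in wildtype pools. The knockout values lay just above their arrays' background and the wildtype values below theirs. These levels differed between arrays, and that of wildtype pool 3, 125.7 units, exceeded every knockout value. Wildtype pool 2 lay just under its level of 69.4 units. With each wildtype pool set at its background level, the mean signal was at least 1.02-fold higher in knockout pools, which is no bound for single pools. The measured log2 difference was 0.44 (95% confidence interval 0.08 to 0.79, limma adjusted p = 0.239).

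Pde6h encodes the inhibitory γ subunit of the cone enzyme and had 2 probe sets, both above background on all arrays. The brighter, 1450766_at, read 490.3, 511.9 and 726.4 units in knockout pools, against 450.6, 488.4 and 244.3 units in wildtype pools. Knockout pools 1 and 2 lay close to wildtype pools 1 and 2, and knockout pool 3 and wildtype pool 3 were the extremes. Its log2 difference was 0.57 (95% confidence interval -0.04 to 1.17, limma adjusted p = 0.411), and it was 0.27 without wildtype pool 3. The other, 1450765_a_at, read 329.8, 314.5 and 414.2 units in knockout pools, against 298.7, 279.8 and 243.4 units in wildtype pools, with the same order of extremes and a log2 difference of 0.34. In a fit over all 20967 probe sets bright enough to test, its adjusted p was 0.375, and 1449132_at of Opn1sw and the Gnb3 probe set were the 2 called among 10 cone probe sets tested, beside 1.51% of all probe sets tested called higher.

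Cngb3 and Arr3 had their highest value in wildtype pool 3, the pool that was lowest for the representative probe sets of Opn1sw, Gnat2, Gnb3, Gngt2, Pde6c and Pde6h. The background level was also highest on that array (125.7 units), and its part in these 2 patterns was not tested. Cngb3, the regulatory subunit of the cone cyclic nucleotide-gated channel, read 230.1, 226 and 178.5 units in knockout pools, against 170.3, 131.5 and 257.6 units in wildtype pools. Wildtype pools 1 and 2 were below all knockout pools and wildtype pool 3 above them, and the log2 difference was 0.21 (95% confidence interval -0.31 to 0.73, limma adjusted p = 0.852). It was 0.0025 without wildtype pool 2 and 0.46 (adjusted p = 0.0990) without wildtype pool 3. The difference was -0.16 within the arrays with brighter controls and 0.23 within those with dimmer controls.

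Arr3, the cone arrestin, had 3 probe sets that disagreed. The representative one, 1441144_at, which the annotation ties to an expressed sequence tag, read 229.8, 306 and 200.6 units in knockout pools, against 131.8, 148.8 and 412.1 units in wildtype pools. As for Cngb3, wildtype pool 3 was above all knockout pools and the other wildtype pools were below them, with a log2 difference of 0.24 (95% confidence interval -0.64 to 1.11, limma adjusted p = 0.914), -0.61 within the arrays with brighter controls and 0.47 within those with dimmer controls. The other Arr3 probe sets, which the annotation ties to other transcript records, were below background on every array. They read 9.9, 7.3 and 21.7 units (1450329_a_at) and 10.8, 10.2 and 8.5 units (1425232_x_at) in knockout pools, against 17.6, 9.5 and 13.4 units and 3.5, 19.2 and 12.2 units in wildtype pools. The statement that Arr3 was above background at birth therefore rests on 1 of its 3 probe sets.

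Over the 8 tested cone genes, 2 rose (Opn1sw and Gnb3) and none fell, beside 2.03% of all tested genes called higher and 2.63% called lower. At an unadjusted limma p under 0.05 there were 4 higher (with Gnat2 and Pde6c) and 0 lower, beside 6.68% of all tested genes higher, and 0 members were called with the labels' error model. All members but Gngt2, 7 of 8, had a difference above 0, beside 54.3% of all tested genes. The median log2 difference was 0.47, beside 0.02 over all tested genes, with 0.64 and 0.34 within the arrays with brighter and dimmer controls. In 5 genes (Opn1sw, Gnb3, Gnat2, Pde6c and Pde6h) all knockout pools lay above all wildtype pools, beside 10.5% of all tested genes. Their differences exceeded those of 96.4% (Pde6c) to 99.3% (Opn1sw) of all tested genes, against 41.4% for Gngt2, 83.4% for Cngb3 and 86.4% for Arr3. The mean of the members' centred log2 values was 0.23, 0.28 and 0.15 in knockout pools 1, 2 and 3, against -0.18, -0.16 and -0.32 in wildtype pools 1, 2 and 3.

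The count of called genes rested on single pools. Without wildtype pool 3 it was 5, as Gnat2 (adjusted p = 0.0402), Arr3 (0.0358) and Cngb3 (0.0990) joined Opn1sw and Gnb3. In that fit the calls over all tested genes also went from 509 to 1944, of which 865 were higher. The count of cone genes was 0 without knockout pool 1, knockout pool 2 or wildtype pool 2, 1 without knockout pool 3 and 2 without wildtype pool 1. It was also 0 when pools 1 and 2 were averaged within each genotype. When the hybridisation control set was added to the fit as a block the count was 4, and Gnat2 (log2 difference 0.63, adjusted p = 0.0593) and Pde6h (0.80, adjusted p = 0.00504) were the genes added. Calls over all tested genes were then 1030, of which 597 were higher. This division was made from the same arrays, so the block fit is no separate support.

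**Figure D2:**
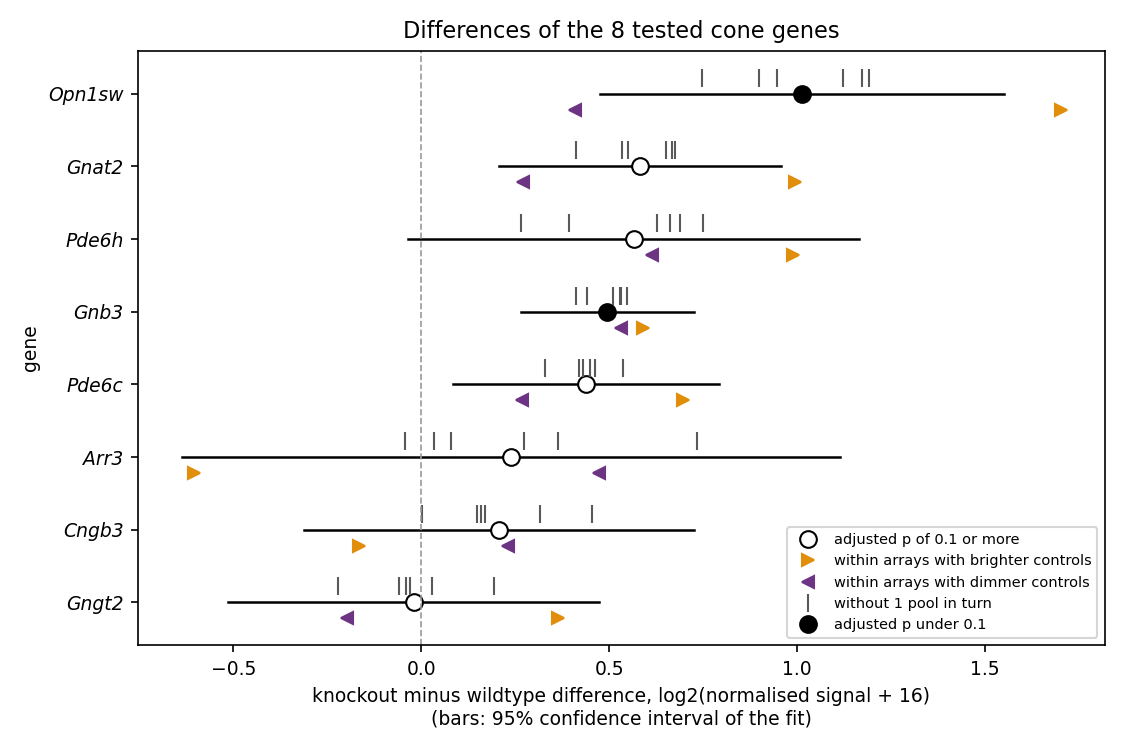
Knockout minus wildtype difference of the 8 tested cone genes on the log2(normalised signal + 16) scale (horizontal axis), with the 95% confidence interval of the fit as bars; filled circles passed the test, ticks above each bar leave out 1 pool in turn, and triangles below give the difference within the arrays with brighter or dimmer hybridisation controls. Opn1sw lies furthest right at 1.01 with its within-set values far apart (1.70 and 0.41), those of Gnb3 lie close together (0.59 and 0.53), and Arr3, Cngb3 and Gngt2 have intervals that span 0.

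Of 26 genes that encode the rod counterparts of these proteins or parts used by both photoreceptor types, 24 had a probe set and 15 were tested. Among them 3 rose and 0 fell, beside 2.03% and 2.63% of all tested genes, and at an unadjusted limma p under 0.05 there were 5 higher, beside 6.68% of all tested genes, and 0 lower. The list's median log2 difference was 0.34. Pdc, phosducin, which binds the transducin βγ pair, read 1964.6, 1886.8 and 2058.3 units in knockout pools, against 1260.4, 1151.2 and 926.5 units in wildtype pools (1.77-fold, limma adjusted p = 0.00870). Pde6g, the rod counterpart of Pde6h, read 388.2, 348.7 and 453.8 units in knockout pools, against 291.2, 272.9 and 235.2 units in wildtype pools (1.46-fold, limma adjusted p = 0.0804). Gnb5, the β subunit that partners the regulator Rgs9 and is also found in other neurons, rose 1.35-fold (limma adjusted p = 0.0551). Of 20 alternative settings, Pdc was called in 19, all but the averaging of pools 1 and 2 (adjusted p = 0.130), Gnb5 in 9 and Pde6g in 8. Of the 24 genes with a probe set, 9 were above background on all 6 arrays, among them Sag (609 to 1261.8 units), and 9 on none. Pde6b, Cngb1, Gngt1, Rcvrn and Rd3 were above it on 5 arrays. In wildtype pool 3 they read 64.1 to 120.6 units, under that array's level of 125.7 units. The rod α transducin gene Gnat1, the counterpart of Gnat2, was not above background on any array, with 21.4 to 32.8 units in knockout and 7.6 to 24.2 units in wildtype pools. Neither were Pde6a, Cnga1 and Grk1. Without knockout pool 1, 2 or 3 or wildtype pool 1 or 2, only 1 gene of this list was called in each case, and without wildtype pool 3 there were 4. The fit without wildtype pool 3 called 1944 genes over the whole table.

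Of 18 transcription regulators known for cone and rod fate, 15 were tested, 0 rose and 1 fell, beside 2.03% and 2.63% of all tested genes, and the list's median log2 difference was 0.14. At an unadjusted limma p under 0.05, 4 were higher (Rxrg, Crx, Neurod1 and Nrl), beside 6.68% of all tested genes, and 1 lower. For the lower direction no share of all tested genes was computed. Rorb, a nuclear receptor needed for rod formation and for Opn1sw expression in the mouse, read 777.4, 882.8 and 851.5 units in knockout pools, against 1063.9, 1229.7 and 1242.4 units in wildtype pools. The genotypes did not overlap (log2 difference -0.48, limma adjusted p = 0.033), with -0.58 and -0.42 within the arrays with brighter and dimmer controls. In the values as deposited Rorb was no longer called (log2 difference -0.30, adjusted p = 0.282) and 3 other genes of the list were called higher, and the call also ended without knockout pool 1 (adjusted p = 0.163), knockout pool 2 (0.113) or wildtype pool 2 (0.129). Thrb, whose cone isoform is required for Opn1mw, was not above background on any array.

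**Figure D3:**
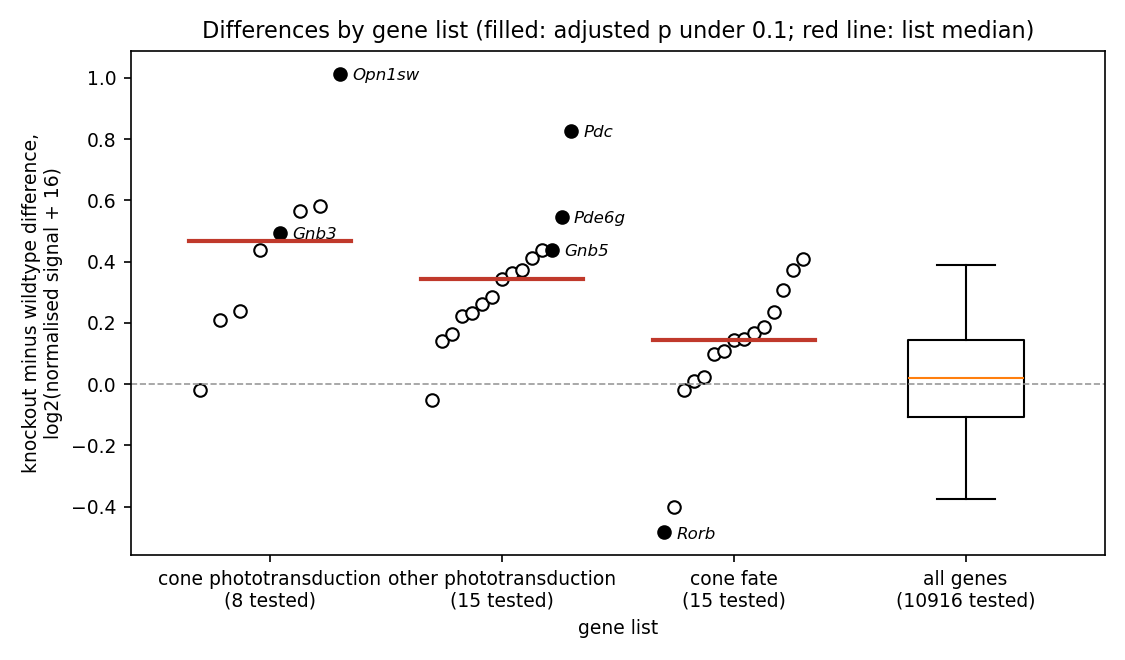
Knockout minus wildtype differences on the log2(normalised signal + 16) scale (vertical axis) for the tested genes of 3 lists, 1 circle per gene, filled and named where the adjusted p was under 0.1, with red lines at the list medians; the box at the right shows the quartiles of all 10916 tested genes and its whiskers the 5th and 95th percentiles. The medians are 0.47 for cone phototransduction genes, 0.34 for other phototransduction genes, 0.14 for cone fate genes and 0.02 for all genes.

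Lens markers were higher in the knockout pools. Among 16 lens genes that could be tested, 13 rose and 0 fell, beside 2.03% and 2.63% of all tested genes. The summed signal of the 17 measured was 28317 to 72570 units in knockout and 3694 to 10141 units in wildtype pools. It was highest in knockout pool 3 and lowest in wildtype pool 3, and none of the 17 was below background on every array. Of 6 tested pigment epithelium genes 1 fell (Pmel, log2 difference -0.52, limma adjusted p = 0.0947) and 0 rose, beside 2.63% and 2.03% of all tested genes. Rlbp1 was higher (log2 difference 1.05, limma adjusted p = 0.149) and Ttr lower (log2 difference -1.004, limma adjusted p = 0.126), and neither passed the test. At an unadjusted limma p under 0.05, 1 gene of this list was higher, beside 6.68% of all tested genes. Another 2 were lower, for which no share of all tested genes was computed. The summed signal of 12 was 1443 to 1782 units in knockout and 1338 to 1930 units in wildtype pools, which overlapped, and Rpe65, Mlana, Lrat, Best1, Mitf and Rgr were not above background on any array. Aanat and Tph1 of the pineal gland, which shares parts of the phototransduction cascade, and the blood genes Hba-a1 and Alas2 were also not above background on any array. The part of lens tissue in the cone gene differences was not tested.

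The 5 tested genes outside the list whose pattern over the 6 arrays was most like the members' mean were Prnp, Col4a1, Rbpms, Ifitm2 and Grn, with Pearson correlations of 0.999, 0.997, 0.995, 0.995 and 0.995 over 6 arrays that share these libraries, the highest among all tested genes. Of the members themselves, Opn1sw (0.951), Gnat2 (0.946), Pde6c (0.941) and Gnb3 (0.924) followed their common mean most closely, Pde6h gave 0.698, and Cngb3 (0.207), Gngt2 (0.149) and Arr3 (0.071) hardly followed it. Each member is part of that mean, so these values only describe how the genes varied.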

How the data were processed

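Retinal RNA of 3 cyclin D1 knockout and 3 wildtype pools was column-purified, biotin-labelled after 1 round of amplification and hybridised to 1 array each, per the labels' protocols. The deposited table gives a linear intensity for every probe set in each sample. Its program and scaling were not given in the sources used here. Per the labels, the authors tested with the NIA Array Analysis tool at a false discovery rate of 0.1.

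Of 45101 probe sets, 64 controls were left out, 34945 had a single symbol and were used, 932 had several and 9160 were unnamed. Symbols of 34741 were taken from RefSeq (GRCm38.p6) by gene identifier, whether or not they differed from the annotated symbol. RefSeq was the source also of promoter sequences, found for 6 of 10 members. Array medians differed, so the deposited intensity values were quantile normalised, floored at 1 and taken to log2(value + 16). The probe set with the highest mean represented a gene, and genes in the lowest 40% by mean were left untested. The fit used limma 3.58.1 in R 4.3.3 (lmFit, eBayes with an intensity trend, no covariate) and was tested on simulated data. Figures were drawn with matplotlib 3.10.9. The number of arrays limits the precision.

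Alternatives covered scaling, pseudocount, filter, probe set, variance model, threshold, replicate number and hybridisation control set as blocks, averaged pools and leaving out each pool. Every member was named, with Ccnd1, called genes of the other lists and the 5 genes most like the members. Genes named as above or below background, by unadjusted p or by role were chosen after their values were seen. The members and lists were chosen with earlier results of these data known.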

Additional observations from a re-analysis of the deposited data

How the results depend on the processing

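Which cone genes were above background depended little on the settings tried: 8 probe sets were above it in knockout and 7 in wildtype retinas with the 90th percentile, with values as deposited, with 2 of 3 arrays required and without any 1 pool, and with the 99th percentile Pde6c dropped out of the 8, leaving 7 in knockout and 7 in wildtype retinas. The calls depended on them. The 2 cone genes called became 1 with arrays centred on their medians, with no filter, with the mean of probe sets, at a threshold of 0.05 or with the replicate block, 0 with no intensity trend, the labels' error model or pools 1 and 2 averaged, and 4 with the hybridisation control set as a block; without 1 pool they were 0 to 5. The 2 cone probe sets called became 1 with no filter, at a threshold of 0.05 or with the replicate block, 5 with the set as a block and 0 with averaged pools, and 0 to 4 without 1 pool. The 3 other phototransduction genes became 1 with median centring, the labels' error model, a threshold of 0.05 or the replicate block, 10 with the set as a block and 0 with averaged pools, and 1 to 4 without 1 pool. The 1 cone fate gene became 3 with values as deposited, 2 with the probe set of largest difference, 5 with the set as a block and 0 with median centring, no intensity trend, the labels' error model or averaged pools, and 0 to 4 without 1 pool. Over all genes, 509 calls became 239, 208, 322, 269, 1030 and 43 with median centring, the labels' error model, a threshold of 0.05, the replicate block, the set as a block and averaged pools, and 179 to 1944 without 1 pool. Rises made up 43.6% of calls, 70.3% with values as deposited, where the whole table shifted to a median difference of 0.13 against 0.02, and 58% with the set as a block.

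Opn1sw and Gnb3 each kept their call in 11 of 20 alternatives and their direction in all 20, with log2 differences of 0.59 to 1.19 and 0.41 to 0.69. Gnat2 was called in 3 of 20, Pde6h, Arr3 and Cngb3 in 1 each, and Pde6c in none of 19. The difference of Gngt2 turned positive with values as deposited (0.0404), the set as a block and averaged pools (0.0832 in both) and without knockout pool 1 (0.0297) or wildtype pool 2 (0.195), with a range of -0.223 to 0.195 without 1 pool, and that of Arr3 turned negative with the set as a block and averaged pools (-0.0666 in both) and without wildtype pool 1 (-0.0445), with a range of -0.0445 to 0.734 without 1 pool. The cause was not tested. For samples with the same replicate number, deviations from the genotype means had correlations of 0.17, -0.35 and -0.48. With 3 pools of a genotype, these values cannot show whether the numbers pair the pools. With the replicate block the adjusted p was 0.0142 for Opn1sw and 0.149 for Gnb3.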
